A study of Mus musculus with 4 samples.

Results

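The genes described here are the mouse MHC class II genes that can be followed in bulk RNA of LSK cells. These are bone marrow cells sorted as Lineage-, Sca1+ and Kit+, among which are the blood stem cells and the first progenitors that arise from them. The genes are the 10 rows of the deposited gene table whose symbol is H2-Aa, H2-Ab1, H2-Eb1, Cd74, Ciita, H2-DMa, H2-DMb1, H2-DMb2, H2-Oa or H2-Ob. All 10 were found among the 24421 genes of the table. Of these, 9 passed the filter on low counts and were among the 13296 genes tested, and H2-DMb2 did not pass it. The cells came from mice aged 13 to 15 months. There were 2 libraries from p53R248W/+ mice, which carry the p53 missense mutation R248W on 1 allele, and 2 from wild-type (WT) mice. Strain, sex and the number of animals behind each library are not given in the sources used here, so p-values measure the spread between these libraries only, which may be technical.

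MHC class II molecules carry peptides from the endosomes to the cell surface and show them to CD4 T cells. An alpha and a beta chain (H2-Aa with H2-Ab1 in the I-A molecule, and H2-Eb1 as the beta chain of I-E) assemble on the invariant chain Cd74, the peptide editor H2-DM exchanges the invariant chain fragment for other peptides, and H2-O restrains H2-DM. Ciita is the co-activator on which transcription of most of the set depends in dendritic cells, B cells and macrophages, and in many other cells after interferon-gamma, and class II molecules have also been found on mouse blood stem and progenitor cells.

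The proximal promoters are shown first because the genes share a module there, the S-X-Y box, on which the RFX complex, CREB and NF-Y recruit Ciita. RefSeq promoter windows (250 bases before to 50 after a transcription start, build GRCm38.p6) were matched for 7 of the 10 genes. The 130 bases before the start are printed 5′ to 3′ on the strand of the gene for 3 genes whose levels moved together across the libraries (H2-Aa, H2-Eb1, H2-DMb1) and for both genes of H2-O, whose levels did not. Capitals mark exact matches on that strand to CTGATTGG or its core ATTGG (the Y box type of NF-Y site), to GCAAC (a core of the sites of RFX factors, as in the X box) and to TGACGTCA (the CREB site). GCAAC and TGACGTCA were chosen after the windows had been read.
H2-Aa, chr17:34287824-34287953, minus strand: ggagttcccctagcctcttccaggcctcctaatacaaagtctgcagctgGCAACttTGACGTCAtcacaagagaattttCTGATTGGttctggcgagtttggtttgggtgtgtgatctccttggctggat
H2-Eb1, chr17:34305737-34305866, plus strand: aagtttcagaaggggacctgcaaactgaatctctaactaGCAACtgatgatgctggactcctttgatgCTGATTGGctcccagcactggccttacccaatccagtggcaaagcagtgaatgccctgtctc
H2-DMb1, chr17:34153061-34153190, plus strand: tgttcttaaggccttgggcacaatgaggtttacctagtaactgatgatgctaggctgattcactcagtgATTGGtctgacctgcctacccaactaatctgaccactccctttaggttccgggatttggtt
H2-Oa, chr17:34092249-34092378, plus strand: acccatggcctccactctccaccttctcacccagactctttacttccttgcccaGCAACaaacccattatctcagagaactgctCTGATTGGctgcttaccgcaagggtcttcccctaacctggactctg
H2-Ob, chr17:34238775-34238904, plus strand: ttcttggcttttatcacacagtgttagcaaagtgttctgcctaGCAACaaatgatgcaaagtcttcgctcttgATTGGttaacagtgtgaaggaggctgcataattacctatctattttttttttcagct

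The 8-letter CTGATTGG was found in H2-Aa, H2-Eb1 and H2-Oa, where it began 51, 62 and 46 bases upstream of the start. Over 32851 promoter windows of the mouse genome, 4.1% held it on either strand. The shorter ATTGG, which lies inside the longer motif, began 61 bases upstream in H2-DMb1 and 57 bases upstream in H2-Ob, and 37.4% of all windows held it on either strand. Each of the 7 matched genes held it somewhere, with H2-DMb2 at 90 bases upstream and H2-DMa at 198 bases upstream in the second of its 2 windows. GCAAC lay upstream of ATTGG with 28 bases between them in H2-Aa, 27 in H2-Eb1, 28 in H2-Oa and 25 in H2-Ob, and 35.2% of all windows held GCAAC. The palindrome TGACGTCA was found in H2-Aa alone among the windows matched, 74 bases upstream, against 1.79% of all windows. These are matches of letters and were not tested as binding sites.

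Total counts were 14820759 and 12111126 reads in the p53R248W/+ libraries and 14544290 and 14109906 in the WT libraries. Levels below are in CPM, read counts brought to a common library total after scaling by TMM, a trimmed-mean method. A number of 3 counts, the smallest number treated as above 0, corresponds to 0.202 to 0.248 CPM. Kit, used in the sort, was at 911 to 1182 CPM and Ly6a, the gene of Sca1, at 40.2 to 82.9 CPM over the 4 libraries. No gene of the 13296 tested passed an adjusted p of 0.05 for p53R248W/+ over WT in edgeR's quasi-likelihood test (0% higher and 0% lower), while 780 genes, or 5.87%, had an unadjusted p under 0.05. DESeq2 called 6 genes and limma-voom 0.

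Class II RNA was readily detected in the LSK libraries but did not separate the genotypes. The 10 genes summed to 391 and 503 CPM in p53R248W/+ cells and to 219.5 and 698 CPM in WT cells. The lowest and the highest of the 4 sums were thus both WT, with both p53R248W/+ libraries between them. None of the 9 tested genes passed over all genes in edgeR's quasi-likelihood test, in either direction, and 0 of the 9 had an unadjusted p under 0.05. DESeq2 and limma-voom also called 0 of the 9. Log2 fold changes of p53R248W/+ over WT were below 0 for 5 of the 9 genes, against 50.0% of all genes tested, and their median was -0.07 where that of all genes was 0. In bulk RNA, fewer cells of a type and less RNA per cell cannot be told apart.

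Ciita (mm10 chromosome 16, 10480072 to 10527640, plus strand, 22 exon blocks), the master co-activator of the set, was at 7.89 and 15.9 CPM in p53R248W/+ cells, against 0.767 and 12.6 CPM in WT cells. A single library, WT replicate 1, stood apart with 11 reads, where the others had 117 to 192. The exact Poisson interval of that count was 0.383 to 1.37 CPM and that of WT replicate 2 was 10.8 to 14.6 CPM, at 95% and for counting error only. The WT replicates thus differed 16.5-fold, more than counting error. The log2 fold change of p53R248W/+ over WT was 0.78 ± 0.80 (SE, with n = 2 in each genotype), at an adjusted p of 0.910 in edgeR's quasi-likelihood test, and the genotypes overlapped. It was 3.90 without WT replicate 2 and -0.13 without WT replicate 1, so the library left out set both its size and its sign. Gene counts do not tell the alternative Ciita promoters apart.

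The I-A alpha chain gene H2-Aa (chromosome 17, 34282751 to 34287771, minus strand, 5 exon blocks) was at 50.2 and 71.4 CPM in p53R248W/+ cells, against 21 and 98.6 CPM in WT cells. Its partner, the beta chain gene H2-Ab1 (34263227 to 34269418 on the same chromosome, plus strand, 6 exon blocks), was at 52.5 and 77.6 CPM in p53R248W/+ cells, against 33.0 and 122 CPM in WT cells. H2-Eb1 (34305867 to 34316674, plus strand, 6 exon blocks), the I-E beta chain gene, was at 11.6 and 19.2 CPM in p53R248W/+ cells, against 5.86 and 30.2 CPM in WT cells. All 3 chain genes had the same order, with WT replicate 2 highest, p53R248W/+ replicate 2 next, p53R248W/+ replicate 1 below it and WT replicate 1 lowest. The log2 fold changes of H2-Aa, H2-Ab1 and H2-Eb1 were 0.01 ± 0.53, -0.27 ± 0.48 and -0.26 ± 0.64 (SE, n = 2 per genotype), at adjusted p of 0.999, 0.960 and 0.970 in edgeR's quasi-likelihood test. Their 95% intervals reached from -1.17 to 1.19 for H2-Aa, from -1.33 to 0.79 for H2-Ab1 and from -1.59 to 1.08 for H2-Eb1, so a difference of about 2-fold either way lies within the first of them. The sign turned for each of the 3 with the library left out. The values ran from -0.71 without WT replicate 1 to 1.53 without WT replicate 2 for H2-Aa, from -0.92 to 0.97 for H2-Ab1 and from -1.0 to 1.37 for H2-Eb1 over the same 2 fits.

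Of the other class II loci in the table, H2-Eb2, a second E beta gene, had 3 and 0 reads in p53R248W/+ libraries and 0 and 9 reads in WT libraries. The I-E alpha locus is annotated in this table as the pseudogene H2-Ea-ps, since the reference strain C57BL/6 carries a deletion there, and it had 0 reads in each library, which allows up to 0.202 to 0.248 CPM. I-E beta RNA was therefore counted in libraries without a read for an I-E alpha partner at this locus.

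Cd74 (chromosome 18, 60803849 to 60812652, plus strand, 9 exon blocks), which encodes the invariant chain and chaperone of all class II dimers, was at 184 and 189 CPM in p53R248W/+ cells, against 60.5 and 332 CPM in WT cells. The p53R248W/+ replicates lay within 1.03-fold of each other and the WT replicates 5.49-fold apart, with the genotype means at 187 ± 3.54 CPM in p53R248W/+ cells and 196 ± 192 CPM in WT cells (SD, n = 2). The log2 fold change was -0.07 ± 0.99 (SE), its 95% interval spanned -3.54 to 3.39, and its adjusted p was 0.996 (edgeR quasi-likelihood test). It was -0.83 without WT replicate 1 and 1.63 without WT replicate 2 (adjusted p = 0.283, edgeR quasi-likelihood test). Its exons share 12 bases with the microRNA gene Mir5107, which had 0 to 13 reads.

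**Figure D1:**
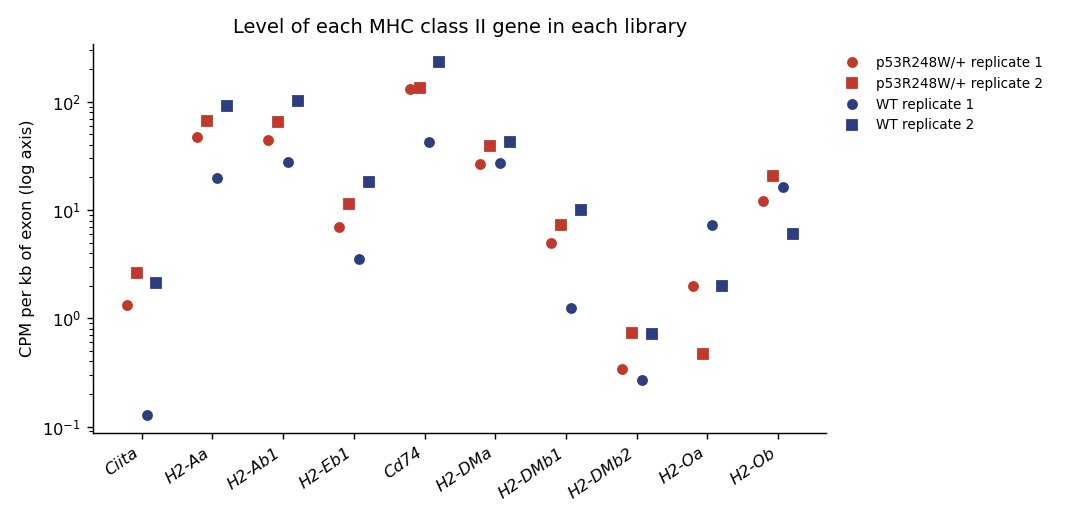
Level of each of the 10 class II genes in each library, in CPM per kb of summed exon length on a log axis. Red points are the 2 p53R248W/+ libraries and blue points the 2 WT libraries, with circles for replicate 1 and squares for replicate 2; for H2-Aa, H2-Ab1, H2-Eb1, Cd74 and H2-DMb1 both red points lie between the 2 blue ones.

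The editor genes behaved unequally. H2-DMa (chromosome 17, 34122832 to 34139101, plus strand), the alpha chain of H2-DM, was at 44.2 and 64.3 CPM in p53R248W/+ cells, against 45.0 and 70.2 CPM in WT cells. It was the most even of the 9 tested genes, with WT replicates 1.56-fold apart, and its log2 fold change was -0.10 ± 0.34 (SE; 95% interval -0.82 to 0.61; adjusted p = 0.981, edgeR quasi-likelihood test). H2-DMb1 (34153191 to 34160229, plus strand), a beta chain gene of H2-DM, was at 6.34 and 9.33 CPM in p53R248W/+ cells, against 1.6 and 12.8 CPM in WT cells. It had the library order of the antigen-presenting chains and a wider gap between the WT replicates, 8.00-fold, than its alpha chain gene, with a log2 fold change of 0.10 ± 0.81 (SE; adjusted p = 0.993, edgeR quasi-likelihood test). The value for H2-DMb1 was -0.73 without WT replicate 1 and 2.26 without WT replicate 2, and that for H2-DMa ran from -0.38 to 0.26 with each library left out. H2-DMb2 (34145416 to 34151095, plus strand), a close paralog of H2-DMb1, had 4 and 7 reads in p53R248W/+ libraries and 3 and 8 reads in WT libraries, at or just above the 3-count floor. The sources used here do not give the treatment of reads with several alignments, so the split of reads between the 2 paralogs is uncertain.

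The genes of H2-O, the inhibitor of H2-DM, did not follow the presenting chains. H2-Oa (chromosome 17, 34092379 to 34095234, plus strand) was at 2.09 and 0.496 CPM in p53R248W/+ cells, from 31 and 6 reads, against 7.67 and 2.10 CPM in WT cells, from 110 and 30 reads. WT replicate 1, the lowest library for the presenting chains, was the highest for H2-Oa. Both p53R248W/+ values lay below both WT values, although the counting interval of p53R248W/+ replicate 1 (1.42 to 2.97 CPM) covered the value of WT replicate 2. Of the 9 tested genes, H2-Oa alone had genotypes that did not overlap, against 33.6% of all genes tested. In 16.6% of all genes both p53R248W/+ libraries lay below both WT libraries, as for H2-Oa, and in 16.9% both lay above, as for 0 of the 9. Its log2 fold change was -1.83 ± 1.09 (SE; adjusted p = 0.835, edgeR quasi-likelihood test), and leaving out WT replicate 1 or p53R248W/+ replicate 1 gave -0.61 or -3.28. Its exons share 200 bases with BC051537 on the other strand, which had 1 and 47 reads in p53R248W/+ libraries and 0 and 3 reads in WT libraries, and the sources used here give no strand setting for the counting. H2-Oa was lowest, at 6 reads, in the library with 47 reads for BC051537, and the part of the overlap in that low count was not tested.

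H2-Ob (34238905 to 34245908, plus strand), the beta chain of H2-O, was at 32.1 and 55.0 CPM in p53R248W/+ cells, against 43.9 and 16.0 CPM in WT cells. Here WT replicate 2, the highest library for the presenting chains, was the lowest, and WT replicate 1 lay between the p53R248W/+ libraries. The log2 fold change was 0.51 ± 0.45 (SE; adjusted p = 0.892, edgeR quasi-likelihood test), with 1.42 without WT replicate 1 and -0.02 without WT replicate 2.

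**Figure D2:**
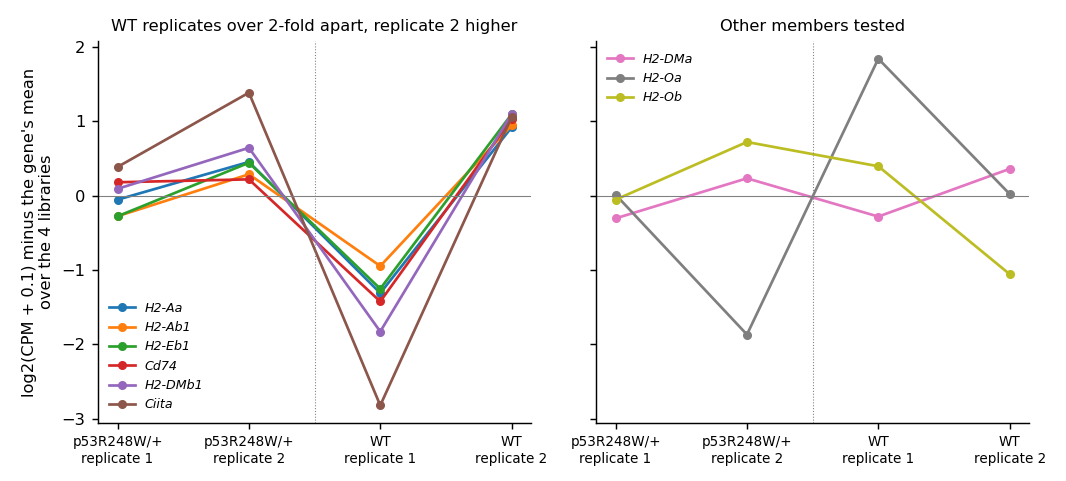
Log2(CPM + 0.1) of each of the 9 tested genes in each library minus the gene's own mean over the 4 libraries, with lines joining the points of 1 gene. Left, the 6 genes with WT replicate 2 over 2-fold above WT replicate 1; right, H2-DMa, which varied least, and H2-Oa and H2-Ob, which were over 2-fold lower in WT replicate 2 than in WT replicate 1.

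Differences within the WT genotype were larger than those between genotypes for most of the set. WT replicate 2 was over 2-fold above WT replicate 1 for 6 of the 9 tested genes (Ciita, H2-Aa, H2-Ab1, H2-Eb1, Cd74 and H2-DMb1), against 14.1% of all genes tested. WT replicate 1 was over 2-fold above WT replicate 2 for H2-Oa and H2-Ob, against 10.7% of all genes. The p53R248W/+ replicates were over 2-fold apart for 2 of the 9, Ciita and H2-Oa, against 23.4% of all genes, where the WT replicates were for 8 of the 9, against 24.8%. For 5 of the 9 genes both p53R248W/+ libraries lay between the WT libraries, against 16.1% of all genes. In each of these 5 WT replicate 2 was the highest and WT replicate 1 the lowest, against 8.30% of all genes, and the opposite order was seen in 0 of the 9, against 7.82%. These ways of counting were chosen after the values had been seen, the genes of a pathway are not independent, and no test was run on the counts.

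The median log2 fold change of the 9 genes turned with single WT libraries. It was -0.71 without WT replicate 1, with 8 of the 9 genes below 0, and 1.37 without WT replicate 2, with 2 of the 9 below 0. The median over all genes tested was 0.03 and 0.06 in those fits. The medians of the 9 genes were 0.16 when p53R248W/+ replicate 1 was left out and -0.25 when p53R248W/+ replicate 2 was. None of the 9 passed over all genes in any of these 4 fits (edgeR quasi-likelihood test). An unadjusted p under 0.05 was reached by 5 of the 9 without WT replicate 2, where 1083 of 14002 genes did, and by 3 of the 9 without WT replicate 1, where 414 of 14086 genes did.

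**Figure D3:**
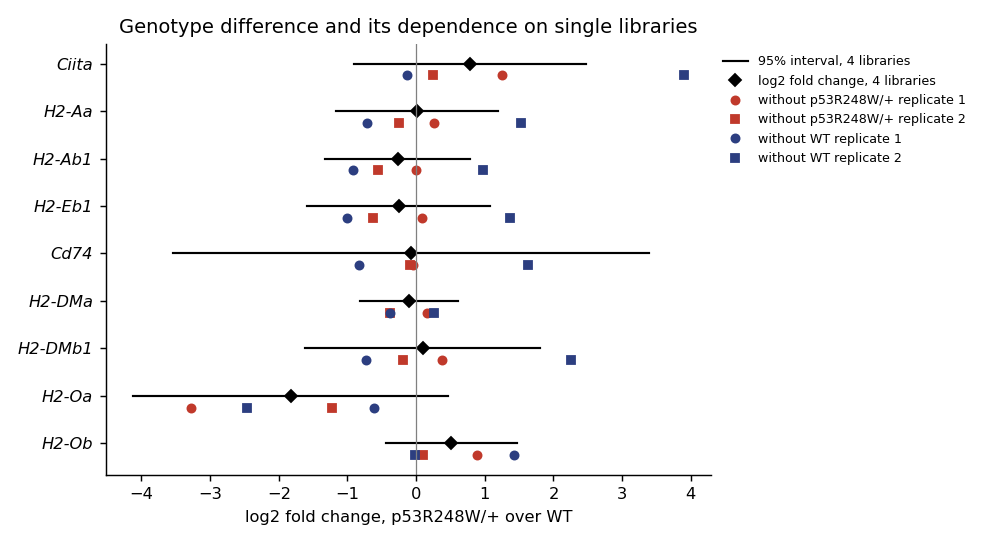
Log2 fold change of p53R248W/+ over WT for the 9 tested class II genes from all 4 libraries (black diamonds, with 95% intervals as bars) and with each library left out (coloured points under each bar). Blue squares, without WT replicate 2, lie above 0 for 7 genes and blue circles, without WT replicate 1, lie below 0 for 8.

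Within a library the presenting genes kept closer to fixed proportions than to fixed levels. Per kb of exon, H2-Aa stood to H2-Ab1 at a ratio of 1.07 and 1.03 in p53R248W/+ cells and 0.710 and 0.899 in WT cells. H2-Eb1 stood to H2-Ab1 at 0.158 and 0.176 in p53R248W/+ cells and at 0.127 and 0.176 in WT cells. Cd74 stood to the sum of the 3 chain genes at 1.33 and 0.932 in p53R248W/+ cells and at 0.842 and 1.10 in WT cells. Each of these ratios varied less than 2-fold over the 4 libraries, where the levels of the same genes varied 3.71- to 5.49-fold between the WT replicates alone. The ratio of Ciita to Cd74 varied more, at 0.0101 and 0.0198 in p53R248W/+ cells and 0.00299 and 0.00897 in WT cells. H2-DMb1 stood to H2-DMa at 0.185 and 0.188 in p53R248W/+ cells and at 0.0460 and 0.236 in WT cells, and H2-Ob to H2-Oa at 6.03 and 43.6 in p53R248W/+ cells and at 2.25 and 2.99 in WT cells. The chains of each accessory dimer were thus further from a fixed proportion than those of the I-A dimer.

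**Figure D4:**
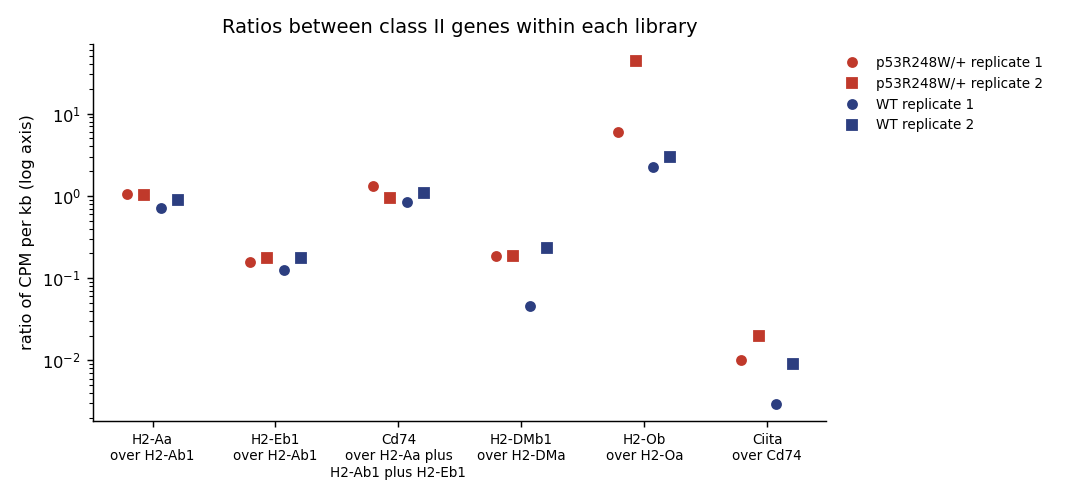
Ratios of CPM per kb of exon between class II genes within each library, on a log axis, with p53R248W/+ libraries in red and WT libraries in blue. The H2-Aa to H2-Ab1 ratio stays between 0.710 and 1.07, whereas the H2-Ob to H2-Oa ratio reaches from 2.25 to 43.6.

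By mean level per kb over the 4 libraries, the order was Cd74 (135 CPM per kb), H2-Ab1 (59.8), H2-Aa (56.4), H2-DMa (33.7), H2-Ob (13.8), H2-Eb1 (10), H2-DMb1 (5.86), H2-Oa (2.95), Ciita (1.55) and H2-DMb2 (0.515). Cd74 was the highest of the 10 in each library. The ranges of neighbours in this order overlapped over the libraries, except that H2-DMa (26.7 to 42.4 CPM per kb) lay above H2-Ob (5.99 to 20.6 CPM per kb) throughout.

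No gene of the promoter-binding complex or of the interferon-gamma pathway passed over all genes in edgeR's quasi-likelihood test. Of 7 genes of the complex that binds class II promoters, 2 had log2 fold changes below 0 and 5 above, with a median of 0.08. The median was -0.03, with 4 of 7 below 0, without p53R248W/+ replicate 2, and 0.31 without WT replicate 2. Rfx5, the large subunit of the RFX complex, was at 111 and 126 CPM in p53R248W/+ cells, against 95.4 and 132 CPM in WT cells, within 1.38-fold between the WT replicates. Rfxank, its ankyrin subunit, was at 33.7 and 11 CPM in p53R248W/+ cells and at 15.3 and 10.7 CPM in WT cells. Nfya, the subunit of NF-Y that contacts the CCAAT sequence, was at 302 and 280 CPM in p53R248W/+ cells and 353 and 282 CPM in WT cells. Of 8 interferon-gamma pathway genes, 6 were below 0, with a median of -0.12. Leaving out WT replicate 2 gave 3 below 0 and a median of 0.11. Irf1, an activator of Ciita, was at 57.5 and 102 CPM in p53R248W/+ cells and at 69.4 and 102 CPM in WT cells. Socs1, the feedback inhibitor of JAK kinases, had 0 and 2 reads in p53R248W/+ libraries and 27 and 49 reads in WT libraries. The p53R248W/+ counts lay under the 3-count floor, and Socs1 passed the filter on low counts only through the WT libraries. It is named because of these values. Its unadjusted p was 0.0232, where 5.87% of all genes had one under 0.05, and its adjusted p was 0.824 (edgeR quasi-likelihood test).

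Of 7 tested regulators that act on Ciita promoters, 2 were below 0 and 5 above, with a median of 0.31. The median was 0.94 without WT replicate 1 and 0.05 without WT replicate 2, with 8 genes tested in each of these fits. Spi1, the myeloid factor PU.1, was at 15.8 and 33.9 CPM in p53R248W/+ cells, against 32.7 and 19.8 CPM in WT cells. Irf8, a factor of dendritic cells and monocytes, was at 27.8 and 37.9 CPM in p53R248W/+ cells, against 33.2 and 19.1 CPM in WT cells. Both were thus lower in WT replicate 2 than in WT replicate 1, and the part of the listed regulators in the Ciita values was not tested. Irf4, a lymphoid and dendritic cell factor, was at 66.9 and 18.5 CPM in p53R248W/+ cells and at 22.9 and 11.1 CPM in WT cells, with a log2 fold change of 1.38 ± 0.55 (SE; adjusted p = 0.824, edgeR quasi-likelihood test).

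The lysosomal enzymes that trim the invariant chain and prepare peptides had 4 of 8 below 0 and a median of 0.08, and none passed. Leaving out WT replicate 1 gave 1 of 8 below 0 and a median of 0.16, and leaving out p53R248W/+ replicate 2 gave 3 of 8 and 0.33. Ctss, cathepsin S, which makes the last cuts in the invariant chain, was at 23.7 and 29.9 CPM in p53R248W/+ cells, against 11.2 and 13.4 CPM in WT cells. Both p53R248W/+ values lay above both WT values, as in 16.9% of all genes tested. The log2 fold change was 1.11 ± 0.50 (SE; unadjusted p = 0.0389, adjusted p = 0.824, edgeR quasi-likelihood test). Ctss alone of the 8 had an unadjusted p under 0.05, as did 5.87% of all genes. Ctsl, cathepsin L, was at 84.6 and 48.2 CPM in p53R248W/+ cells and 38.4 and 49.9 CPM in WT cells, and Ctsd at 183 and 186 CPM in p53R248W/+ cells and 304 and 160 CPM in WT cells. Of the surface turnover genes 2 were tested, both above 0 (median 0.92) and neither past the test. When p53R248W/+ replicate 1 was left out, 1 of the 2 was below 0 and the median was -0.88. The membrane ubiquitin ligase gene March8 was at 55.8 and 46.8 CPM in p53R248W/+ cells, against 29.4 and 32.2 CPM in WT cells. Its relative March1, which takes class II molecules off the surface of dendritic and B cells, was at 6.54 and 0.330 CPM in p53R248W/+ cells and at 0.139 and 3.37 CPM in WT cells, so that neither genotype had a common level.

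The co-stimulatory molecules that accompany class II molecules on professional presenting cells had RNA at 12.2 CPM or below in each library. Cd80 had at most 0.826 CPM and Cd40 at most 0.0697 CPM in any library. Cd86 was at 7.22 and 8.26 CPM in p53R248W/+ cells and at 6.77 and 3.30 CPM in WT cells. Icosl was at 2.02 and 7.35 CPM in p53R248W/+ cells and at 12.2 and 5.26 CPM in WT cells. The inhibitory ligand Cd274 (PD-L1) was at 114 and 139 CPM in p53R248W/+ cells, against 152 and 173 CPM in WT cells, and Pdcd1lg2 (PD-L2) at 36.6 and 41.0 CPM in p53R248W/+ cells, against 24.3 and 14.6 CPM in WT cells. Of the 4 tested genes of this list, 2 were below 0 and 2 above, and none passed (edgeR quasi-likelihood test, adjusted over all genes). Their median was 0.12, and with 1 library left out it ran from -0.03 without WT replicate 2 to 0.49 without WT replicate 1.

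**Figure D5:**
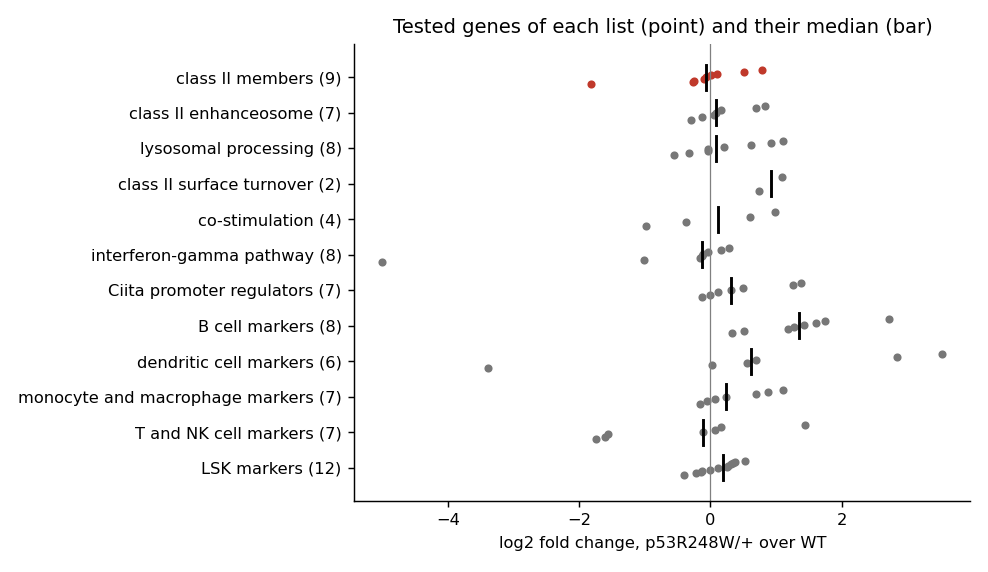
Log2 fold changes of p53R248W/+ over WT for the tested genes of the class II set (red) and of each further list (grey), with the list's median as a black bar and the number of tested genes in brackets. The class II median is -0.07 and that of the B cell markers 1.35; no gene shown passed an adjusted p of 0.05.

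Markers of professional presenting cells were measured beside the class II genes. Of the 16 B cell markers, 8 were tested, all 8 with log2 fold changes above 0 (median 1.35), and the list summed to 74.1 and 44.9 CPM in p53R248W/+ cells and to 19.2 and 28.3 CPM in WT cells. With 1 library left out the median ran from 0.88 to 1.81, with 0 to 2 of the then 10 to 12 tested genes below 0. Cd79b was at 20.2 and 12.1 CPM in p53R248W/+ cells, against 4.67 and 8.98 CPM in WT cells. Cr2 was at 18.55 and 11.9 CPM in p53R248W/+ cells, against 5.51 and 8.14 CPM in WT cells. Blnk was at 18.3 and 5.70 CPM in p53R248W/+ cells, against 1.395 and 2.385 CPM in WT cells. Pax5, which defines the B lineage, had 0 reads in each library. Of the 13 dendritic cell markers, 6 were tested, 1 below 0 and 5 above (median 0.62), and the list summed to 119 and 70.0 CPM in p53R248W/+ cells and to 45.1 and 62.4 CPM in WT cells. Most of that sum was Clec9a, at 89.2 and 40.6 CPM in p53R248W/+ cells and 32.8 and 49.3 CPM in WT cells, while Batf3 and Ccl22 had 0 reads in each library. Itgax was at 0 and 2.56 CPM in p53R248W/+ cells and 0.0697 and 0.281 CPM in WT cells. Ccr7 was at 11.3 and 5.37 CPM in p53R248W/+ cells, against 0.0697 and 1.40 CPM in WT cells. Zbtb46 was at 5.46 and 5.12 CPM in p53R248W/+ cells, against 0.209 and 1.26 CPM in WT cells. These 2 had an unadjusted p under 0.05 (edgeR quasi-likelihood test), as did 5.87% of all genes. Xcr1, the 1 below 0, had 1 and 3 reads in p53R248W/+ libraries and 17 and 30 reads in WT libraries. The 14 matched monocyte and macrophage markers (7 tested, 2 below 0, median 0.23), mostly Lyz2, summed to 348 and 293 CPM in p53R248W/+ cells and to 344 and 255 CPM in WT cells, with Fcgr1 at 0 reads in each library and C1qa, C1qb and C1qc at no more than 0.421 CPM. The 12 T and NK cell markers (7 tested, 4 below 0, median -0.12) summed to 89.1 and 75.9 CPM in p53R248W/+ cells and to 76.2 and 101 CPM in WT cells. The highest by mean was Klrb1c, at 58.1 and 45.4 CPM in p53R248W/+ cells and 55.9 and 43.6 CPM in WT cells. Next was Nkg7, at 22.3 and 18.25 CPM in p53R248W/+ cells and 12.4 and 32.0 CPM in WT cells. Cd3g and Gzma had 0 reads in each library.

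WT replicate 1, lowest for the presenting chains, was also lowest for the B cell and dendritic cell sums. The highest library for both sums was p53R248W/+ replicate 1, and not WT replicate 2 as for the presenting chains. WT replicate 2 was the lowest for the monocyte and macrophage sum and the highest for the T and NK cell sum. With 1 library left out, the median log2 fold change of the dendritic cell list ran from 0.99 to 1.99 (7 to 8 genes tested). That of the monocyte and macrophage list ran from 0.09 to 0.94 (7 to 8 tested). That of the T and NK cell list ran from -0.65 to 0.56 (7 to 9 tested). The genes that passed the filter thus differed between fits, so these medians are not all of the same genes. The 12 LSK markers (12 tested, 5 below 0, median 0.18) summed to 5031 and 4677 CPM in p53R248W/+ cells and to 4024 and 4377 CPM in WT cells, and 7 of the 12 were below 0, with a median of -0.06, when p53R248W/+ replicate 2 was left out. The part of other cell types in the class II values was not tested.

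The 5 genes closest to the common pattern of H2-Aa, H2-Ab1, H2-Eb1 and Cd74 over the 4 libraries were Dgkh, Iigp1, Zcchc4, Pm20d2 and Pak4. Their root-mean-square differences of centred log2 CPM, 0.104 to 0.163, were the smallest among 9254 other genes at a mean of 10 CPM or more. H2-Aa itself was at 0.080 and Cd74 at 0.185. Both are part of the mean pattern, which lowers their distance from it, so these values are not a like measure. The interferon-inducible GTPase gene Iigp1 was the most abundant of the 5, at 123 and 167 CPM in p53R248W/+ cells, against 62.3 and 220 CPM in WT cells. The other 4 had means of 14.0 to 16.8 CPM. The likeness rests on 4 libraries and is a description of them.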

How the data were processed

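The authors deposited 1 table of raw read counts per gene symbol with exon coordinates in mm10. The submitters' processing notes name STAR 2.7.10a and Subread 2.0.3, to which featureCounts belongs, besides edgeR 3.40.2 and FastQC 0.11.5. The summed exon length is a score column, per the file headers, and was used to express levels per kb. Strand setting and multi-mapping are not given in the sources used here.

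The 10 genes and the 12 further gene lists were chosen with earlier results of these data known. All 10 genes are named whatever their values. Other list genes were to be named at a mean of at least 10 CPM, and those named below it were picked with their values in view. The nearest genes follow a fixed rule of smallest root-mean-square distance.

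Genes were filtered with filterByExpr (minimum count 10, minimum total 15), scaled by TMM and compared with glmQLFit (robust=TRUE, legacy=FALSE) and glmQLFTest of edgeR 4.0.16 in R 4.3.3, two-sided, with genotype as the only term and Benjamini-Hochberg adjustment over all genes (threshold 0.05). SE and SD have n = 2 per genotype. Alternatives were other scalings and filters, DESeq2 1.42.0, limma-voom (limma 3.58.1), the replicate number as a block, each library left out and, added after the data were seen, the legacy quasi-likelihood method. Libraries held 12111126 to 14820759 counts, and intervals and floors cover counting error only. H2-Ea and the newer symbols Marchf1 and Marchf8 and the older Emr1 matched no row under those names.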

Additional observations from a re-analysis of the deposited data

How the results depend on the processing

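The 9 tested class II genes gave 107 log2 fold changes under the alternatives, of which 92 kept their sign and 15 turned it, and none of the 107 passed an adjusted p of 0.05 (smallest 0.283). With limma-voom, 3 of the 9 genes were below 0 (median 0.38, against -0.07), and H2-Eb1 and Cd74 turned to 0.14 and 0.40. With each library left out the number below 0 ran from 2 to 8. The log2 fold changes then ran from -0.71 to 1.53 for H2-Aa, -0.92 to 0.97 for H2-Ab1, -1.0 to 1.37 for H2-Eb1, -0.83 to 1.63 for Cd74, -0.13 to 3.90 for Ciita, -0.38 to 0.26 for H2-DMa, -0.73 to 2.26 for H2-DMb1 and -0.02 to 1.42 for H2-Ob, and the H2-Oa values (-3.28 to -0.61) kept their sign. Total-count and median-ratio scaling turned no sign. Over all genes, DESeq2 called 6, and leaving out 1 library called 0 to 1. With an arm of 1 library, that library is assumed to vary like the others.

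The deviations of same-numbered libraries from their genotype means correlated at r = -0.01 across 13296 genes, which are not independent. A correlation over all genes cannot exclude an effect of replicate number on some of them. Replicate 2 was above replicate 1 in both genotypes for Ciita, Cd74, H2-Aa, H2-Ab1, H2-Eb1, H2-DMa and H2-DMb1, though only 1.03-fold for Cd74 in p53R248W/+ cells. It was below replicate 1 in both genotypes for H2-Oa, and H2-Ob went opposite ways. With the replicate number as a block, Cd74 was at 0.26, the median of the 9 was 0.20 and 0 genes were called. In that fit 1 of the 9 had an unadjusted p under 0.05 (edgeR quasi-likelihood test), as did 758 of the 13296 genes tested. At 2 libraries per genotype, and with the WT replicates 3.71- to 16.5-fold apart for Ciita, Cd74, H2-DMb1 and the 3 chain genes, the 95% intervals of these 6 genes include differences of 2-fold.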
